A study of Mus musculus with 6 samples.

Results

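The genes described here are imprinted genes of the mouse, which are transcribed mainly from the copy inherited from the mother or mainly from the copy inherited from the father. The list held 38 genes, and an array spot counted for a gene when its name in the scanner file was that gene or when its accession maps to it. All 38 genes had at least 1 probe among 27670 named genes, with 79 of 41174 probes in all, and Meg3 was found through its older name Gtl2. For 33 of the 38 genes the brightest probe was well above background, by the scanner's own call, in either channel on 2 or more arrays, and these genes were tested among 17439 in all. Peg10, Calcr, Zim1, Phlda2 and Dcn never rose well above background and were not tested. The probe used was well above background in every channel of all 6 arrays for 24 genes.

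RNA came from adherent cultures of neural stem cells from the subventricular zone of mice at postnatal day 14 to 21, either wild-type (WT) or Dnmt3a-null (KO). Dnmt3a is a methyltransferase that places new DNA methylation at CpG dinucleotides. Each array carried WT RNA in one dye and KO RNA in the other, 500 ng per label. On 4 arrays, labelled as biological replicates, the cells had been passaged 2 to 3 times and were proliferating with FGF-2 and EGF, at 10 ng/ml each. On 2 arrays the cells had been replated with these mitogens for 2 days and then kept without them for 3 days, which lets them differentiate into neurons and glia. KO RNA carried Cy3 on proliferating replicates 2 and 4 and on the differentiating array numbered 1, and Cy5 on the other 3 arrays. The labels do not say how many animals gave each culture or which litters the WT and KO cultures came from, so p-values measure the spread between these arrays, whose small number limits the precision.

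At an imprinted locus, CpG methylation of a control region on one parental copy is laid down in the egg or sperm and kept through cell division, and it decides which copy of the linked genes is read. Dnmt3a, with its partner Dnmt3l, is among the enzymes that set these marks in germ cells, while Dnmt1, Uhrf1, Zfp57 and Trim28 help to keep them after fertilisation. Many imprinted genes control growth, and several, among them Dlk1, Igf2, Cdkn1c and Grb10, are known for roles in neural stem cells or in the brain. The arrays measure RNA of both copies together and give no allele and no methylation level.

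Values below are log2 KO over WT ratios per array unless stated otherwise, so that 1 is a 2-fold difference. A gene passed when its adjusted p-value (limma, 2-sided, Benjamini-Hochberg over all genes tested) was under 0.05. In proliferating cells 0 of 33 imprinted genes passed, where 0.992% of all genes tested did (0.631% as higher and 0.361% as lower), and 8 had an unadjusted p under 0.05 (2813 of 17439 among all genes). In differentiating cells 1 of 33 passed, Ddc, where 3.15% of all genes did (2.21% as higher and 0.935% as lower), and 10 had an unadjusted p under 0.05 (3075 among all genes). Igf2 and Rasgrf1 are among these 10, but they needed the KO channel to enter the test and are no support for a difference. The direction was mixed: 21 fitted ratios were above 0 and 12 below in proliferating cells, and 16 above and 17 below in differentiating cells. The median fitted ratio of the list was 0.07 in proliferating cells and -0.01 in differentiating cells, beside -0.01 in each condition for all genes tested. The heat map of ratios by gene and array shows that large ratios were few and that several of them changed in size or sign from array to array.

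**Figure D1:**
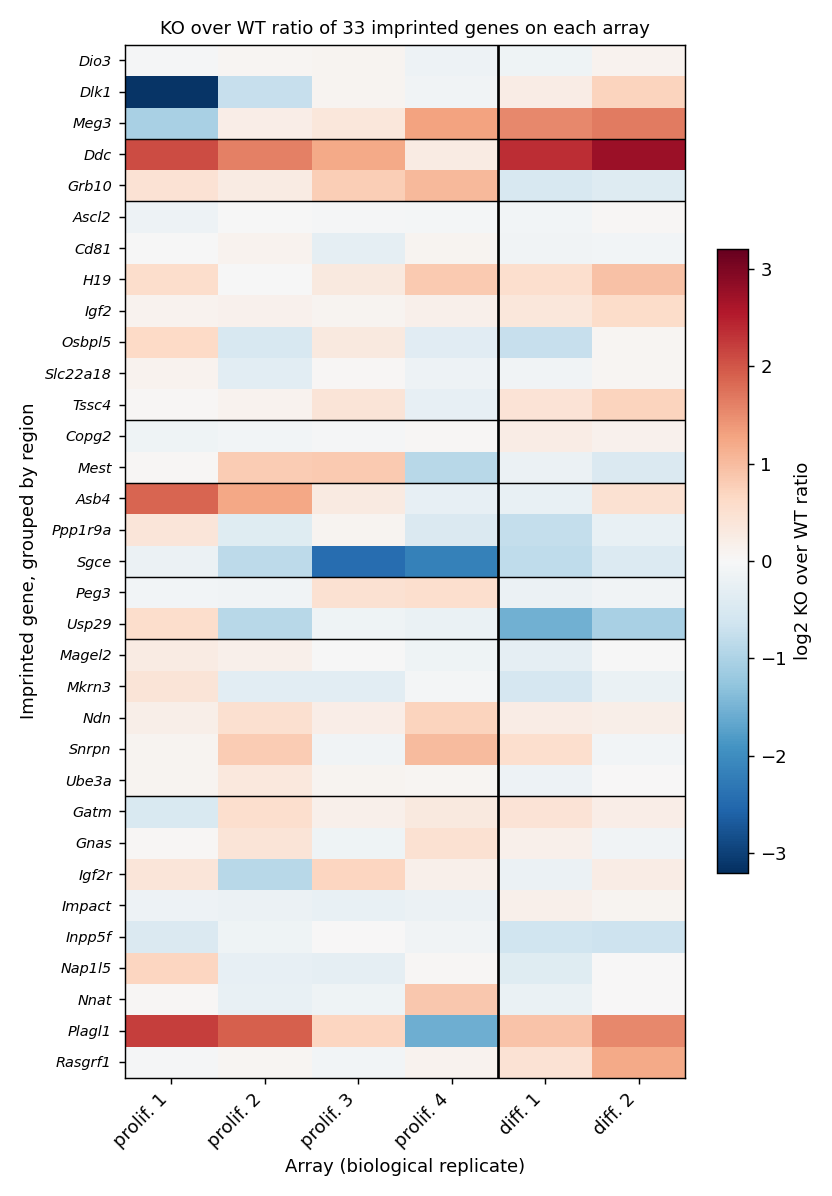
Log2 KO over WT ratio (colour) of the 33 imprinted genes tested, in rows grouped by genomic region, on each of the 6 arrays (columns: proliferating replicates 1 to 4, then differentiating replicates 1 and 2). Ddc is red on every array, Sgce is darkest blue on proliferating replicates 3 and 4, and Plagl1 runs from 2.22 on proliferating replicate 1 to -1.56 on replicate 4.

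Checks of the arrays touch several of these genes. Dnmt3a RNA was lower in the KO channel on all 6 arrays, by -0.96 ± 0.22 (SD, n = 4) in proliferating and -1.38 ± 0.14 (n = 2) in differentiating cells with its brightest probe (limma adjusted p = 0.0218 and 0.0152). The labels do not say which exons are deleted, so the probes cannot be placed inside or outside the deletion. Proliferating replicates 3 and 4 stood apart in sex-linked genes. There the log2 signal of Xist, the noncoding RNA that silences an X chromosome, was 11.27 and 11.06 in the KO and 12.69 and 13.34 in the WT, against 5.92 to 6.08 in every channel of the other 4 arrays. Ddx3y, on the Y chromosome, had ratios of 2.41 and 2.94 on replicates 3 and 4 and between -0.12 and 0.27 elsewhere. Where replicates 1 and 2 differed from replicates 3 and 4, the results on proliferating cells are also given for each pair. Of the 33 genes, 6 (18.2%) had pair means that differed by more than 1, against 2.02% of all genes tested, and these were Ddc, Plagl1, Asb4, Sgce, Dlk1 and Meg3. The part that the sex of the cultures plays in these gaps was not tested.

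Markers of cell types that such cultures can hold also moved. Nes and Sox2, which define neural stem cells, were well above background in every channel. Of 12 stem and progenitor markers 1 passed as lower in proliferating cells, Pax6, with sums of 129300 to 183700 in the KO against 163500 to 203300 in the WT. In differentiating cells 1 passed as higher, Prom1, while the sums of the list were lower in the KO without overlap, 116200 to 120100 against 143400 to 176500. Of 12 neuronal markers 1 passed as higher in proliferating KO cells, Gap43, and 0 as lower. Their summed signals there were 10330 to 11500 in the KO against 9904 to 12800 in the WT. In differentiating cells 5 of 12 neuronal markers passed as lower in the KO and 0 as higher. Their summed signals were 9792 to 11460 in differentiating KO cells against 25050 to 26730 in differentiating WT cells. There 4 of 12 oligodendroglial markers passed as higher, with sums of 167900 to 210300 against 65550 to 84510, and in proliferating cells 2 of 12 did, with sums of 63830 to 148600 against 51280 to 75510. Olig1, Olig2 and Pdgfra were below 0 on both differentiating arrays, with means of -0.34, -0.70 and -0.38, and the other oligodendroglial markers had means above 0 there. Of 10 astroglial markers 2 passed as higher in differentiating cells (189600 to 249200 against 169000 to 200500), and 0 in proliferating cells (105800 to 146000 against 52400 to 87430). Slc1a3, Aldoc and Slc1a2 were below 0 on both differentiating arrays, with means of -0.96, -0.50 and -0.27, and the other astroglial markers had means above 0 there. All such sums weigh the brightest probes most, and Sparcl1 and the stem cell marker Fabp7 were saturated in part of their channels. Choroid plexus and ependymal markers, 5 of 9 tested, gave 3 higher in differentiating cells (2411 to 4066 against 1227 to 1424), and Ttr did not enter the test. Fibroblasts and meningeal cells are known for abundant H19, Igf2 and Dcn, and their markers gave 0 of 7 tested in either condition. In differentiating cells their sums were 2047 to 2334 in the KO and 2300 to 2680 in the WT. Col1a1 and Col1a2 were above 0 on all 6 arrays, with means of 1.21 and 0.37 in differentiating cells. There Thbs2, Ogn and Foxc1 had means of 0.47, 0.21 and 0.12. Fn1 had -0.12, and Pdgfrb, the brightest of the list there, -0.56. The median of the list in proliferating cells was 0.05. In RNA of whole cultures, fewer cells of a type and less RNA per cell cannot be told apart, and the part of these shifts in the results below was not tested.

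Ddc and Grb10 are neighbours on chromosome 11 that share a cluster. Ddc encodes the aromatic amino acid decarboxylase that makes dopamine and serotonin, and Grb10 encodes an adaptor that restrains growth factor receptors, read from the maternal copy in most tissues and from the paternal copy in neurons. Their start regions differ in CpG content, which is why they are shown. The 250 bases before each annotated start (RefSeq, GRCm38.p6, minus strand) are given 5' to 3' with every CpG in capitals. The Ddc starts lie at chr11:11898145-11898394 and chr11:11890409-11890658 and hold 1 and 4 CpGs. For Grb10 they lie at chr11:12037421-12037670, with 40 CpGs, and at chr11:12027972-12028221, with 8.
Ddc, start with 1 CpG: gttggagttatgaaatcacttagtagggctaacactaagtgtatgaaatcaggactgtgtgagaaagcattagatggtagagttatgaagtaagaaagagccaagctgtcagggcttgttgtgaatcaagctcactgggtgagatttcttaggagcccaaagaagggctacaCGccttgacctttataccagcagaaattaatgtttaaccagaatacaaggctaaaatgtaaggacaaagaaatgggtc
Ddc, start with 4 CpGs: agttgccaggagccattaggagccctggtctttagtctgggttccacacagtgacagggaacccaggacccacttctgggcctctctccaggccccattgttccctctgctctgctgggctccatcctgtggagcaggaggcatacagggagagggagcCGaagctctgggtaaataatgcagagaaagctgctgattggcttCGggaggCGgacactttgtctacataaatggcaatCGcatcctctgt
Grb10, start with 40 CpGs: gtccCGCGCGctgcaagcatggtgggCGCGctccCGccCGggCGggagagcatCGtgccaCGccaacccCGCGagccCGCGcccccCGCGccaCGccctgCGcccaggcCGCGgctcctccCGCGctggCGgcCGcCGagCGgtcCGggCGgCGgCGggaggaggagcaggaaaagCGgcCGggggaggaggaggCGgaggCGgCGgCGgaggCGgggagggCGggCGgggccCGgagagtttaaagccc
Grb10, start with 8 CpGs: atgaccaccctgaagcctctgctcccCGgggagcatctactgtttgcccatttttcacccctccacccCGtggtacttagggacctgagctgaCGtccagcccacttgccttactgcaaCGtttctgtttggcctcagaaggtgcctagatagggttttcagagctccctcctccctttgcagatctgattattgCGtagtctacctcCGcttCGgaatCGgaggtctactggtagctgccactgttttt

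Ddc was higher in the KO on all 6 arrays. Its ratios were 2.08, 1.62, 1.21 and 0.27 on proliferating replicates 1 to 4 and 2.35 and 2.74 on differentiating replicates 1 and 2. The log2 signals behind them were 9.48, 9.11, 8.82 and 9.13 in proliferating KO cells and 7.40, 7.49, 7.61 and 8.86 in WT, then 10.96 and 10.89 against 8.61 and 8.14 in differentiating cells. The groups did not overlap in differentiating cells and overlapped in proliferating cells, where WT replicate 4 lay above the lowest KO signal. In differentiating cells the difference was 5.85-fold, with a fitted ratio of 2.55 (95% confidence interval 1.66 to 3.43, limma adjusted p = 0.0322). The proliferating ratio was 1.30 ± 0.77 (SD, n = 4), 2.46-fold, and did not pass (limma adjusted p = 0.0988). A second Ddc probe, further 5' in the gene, gave 0.40, 0.55, 0.19 and 0.06, then 1.26 and 0.54, and so was above 0 on every array with smaller ratios. Its WT channel was well above background on only 1 of 4 proliferating and 1 of 2 differentiating arrays, so the size of these ratios is not exact. The probe used lies at chr11:11767325-11767384 of build mm7, on the minus strand.

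The Ddc result leans on few arrays. Without differentiating replicate 1 or replicate 2 it no longer passed (limma adjusted p = 0.539 and 0.325, ratios 2.39 and 2.70), in fits where no gene at all passed. With all genes kept regardless of brightness the adjusted p was 0.0552. Among proliferating arrays the mean over replicates 1 and 2 was 1.85 and that over replicates 3 and 4 was 0.74. In the fit without replicates 3 and 4 proliferating Ddc passed (limma adjusted p = 0.0136).

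Grb10 had ratios of opposite sign in the proliferating and differentiating cells. They were 0.47, 0.26, 0.78 and 1.03 on the proliferating arrays and -0.52 and -0.41 on the differentiating arrays. All proliferating arrays were above 0 and both differentiating arrays below. The KO signals of 8.09, 7.54, 6.90 and 7.39 and the WT signals of 7.62, 7.28, 6.11 and 6.36 overlapped in proliferating cells. In differentiating cells KO signals of 7.35 and 7.41 lay below WT signals of 7.87 and 7.81. Neither ratio passed, at 0.63 ± 0.34 (SD, n = 4) and -0.46 ± 0.08 (n = 2) (limma adjusted p = 0.122 and 0.306). The difference between conditions, -1.10 (95% confidence interval -1.70 to -0.50), did not pass either (limma adjusted p = 0.186). Its WT channel was not well above background on proliferating replicates 3 and 4, so the larger ratios there are not exact. The other 2 Grb10 probes were not well above background on enough arrays.

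The plot of ratios by gene and array sets Ddc and Grb10 beside the other genes described singly.

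**Figure D2:**
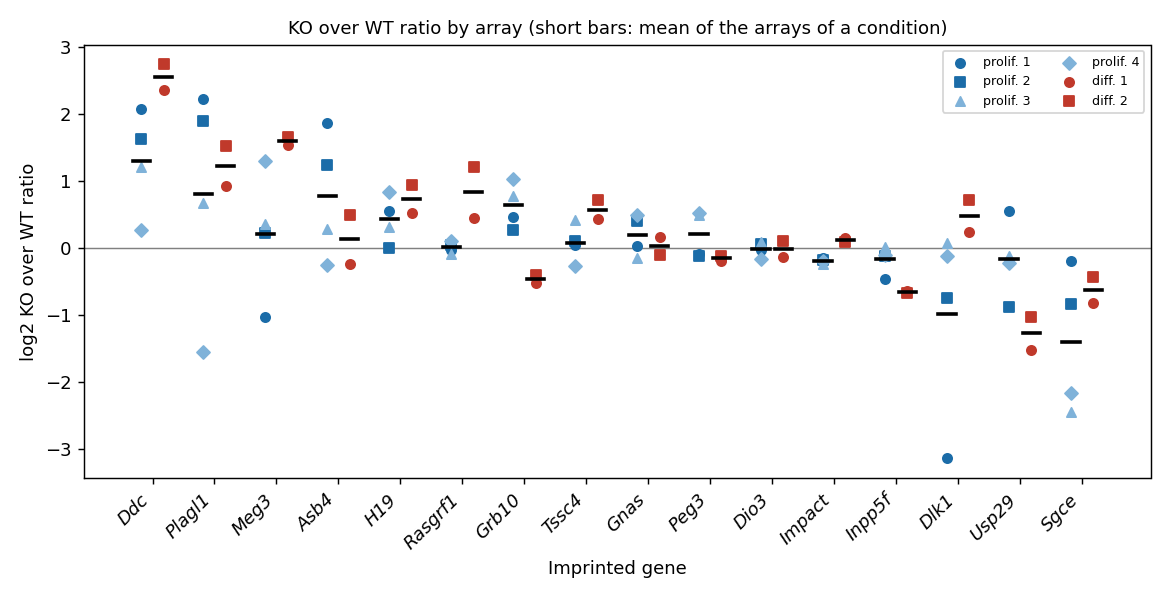
Log2 KO over WT ratio (vertical axis) of 16 imprinted genes on each array: blue for proliferating replicates (dark for 1 and 2, pale for 3 and 4), red for differentiating replicates, short bars for the mean of a condition. Both red Ddc points lie above 2, the pale Sgce points lie below -2 and the blue Plagl1 points span from 2.22 to -1.56.

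On chromosome 6, Sgce encodes epsilon-sarcoglycan, a membrane protein of the dystrophin complex, and is read from the paternal copy. It was lower in the KO on all 6 arrays. Ratios were -0.20, -0.83, -2.45 and -2.17 in proliferating and -0.82 and -0.44 in differentiating cells, so the low values came from proliferating replicates 3 and 4. The KO channel was dimmest on those arrays, and the WT channel was not. The KO read 11.85, 11.49, 9.82 and 10.81, then 11.61 and 11.80, and the WT read 12.05, 12.33, 12.27 and 12.98, then 12.43 and 12.24. KO and WT signals did not overlap in either condition. The other Sgce probe, at another place in the gene, gave -0.01, -0.56, -2.86 and -2.44, then -0.44 and -0.67, which repeats the same split between arrays. The proliferating ratio of -1.41 ± 1.07 (SD, n = 4; 95% confidence interval -2.40 to -0.42) did not pass (limma adjusted p = 0.182), nor did the differentiating ratio of -0.63 ± 0.27 (n = 2; limma adjusted p = 0.658). Over replicates 3 and 4 alone the ratio was -2.31 and passed (limma adjusted p = 0.00809), and over replicates 1 and 2 alone it was -0.51. The fit on replicates 3 and 4 was chosen after seeing the data, and more of all genes passed in it than in the main fit. That call is thus no support for a difference.

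Asb4, a maternally read gene of the same cluster that encodes an ankyrin repeat and SOCS box protein, split the arrays the other way. The ratios of 1.87, 1.23, 0.28 and -0.26 in proliferating cells were high on replicates 1 and 2, and those of -0.23 and 0.49 in differentiating cells had opposite signs. Its signals were also dimmer on proliferating replicates 3 and 4 in both genotypes, at 6.65 and 7.08 in the KO and 6.36 and 7.34 in the WT, than on replicates 1 and 2, at 9.60 and 9.25 in the KO and 7.73 and 8.02 in the WT. On replicate 3 neither channel was well above background. Over all 4 arrays the ratio was 0.78 ± 0.95 (SD, limma adjusted p = 0.332). Without replicates 3 and 4 it was 1.55 and passed (limma adjusted p = 0.0170). Ppp1r9a, which encodes the actin-binding protein neurabin-I, had ratios of 0.40, -0.39, 0.09 and -0.47, then -0.77 and -0.23. Within each condition these followed the dye: the ratio was higher wherever the KO carried Cy5. Peg10 and Calcr of this cluster were not measurable here.

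Plagl1, also called Zac1, is a paternally read gene for a zinc finger transcription factor that can arrest the cell cycle. It is shown with the 250 bases before its start at chr10:13090582-13090831 (plus strand, CpGs in capitals, 19 of them), since the gene is known for a promoter that is methylated on the maternal copy.
Plagl1: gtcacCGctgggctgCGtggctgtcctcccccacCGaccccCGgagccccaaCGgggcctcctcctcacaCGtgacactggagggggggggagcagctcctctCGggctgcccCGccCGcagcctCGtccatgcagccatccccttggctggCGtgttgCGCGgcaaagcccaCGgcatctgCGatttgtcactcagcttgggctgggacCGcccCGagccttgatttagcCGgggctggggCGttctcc

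On proliferating replicates 1 to 4 Plagl1 had ratios of 2.22, 1.90, 0.68 and -1.56, and on differentiating replicates 0.92 and 1.53. Replicate 4 thus stood against 5 arrays on which the KO was higher. KO signals were steady, at 9.95, 9.65, 9.10 and 9.91, then 10.35 and 9.95, while WT signals ran 7.73, 7.75, 8.42 and 11.46, then 9.43 and 8.42. The WT channel of replicate 4 was the highest of all 12. The second Plagl1 probe showed the same sign on replicate 4, -0.69, but values of only 0.03 to 0.21 on the other 5 arrays. Neither condition passed, with 0.81 ± 1.71 (SD, n = 4; limma adjusted p = 0.560) and 1.23 ± 0.43 (n = 2; limma adjusted p = 0.524). Without proliferating replicates 3 and 4 both ratios passed, 2.06 in proliferating and 1.23 in differentiating cells (limma adjusted p = 0.0132 and 0.0127), and over replicates 3 and 4 alone the proliferating ratio was -0.44.

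**Figure D3:**
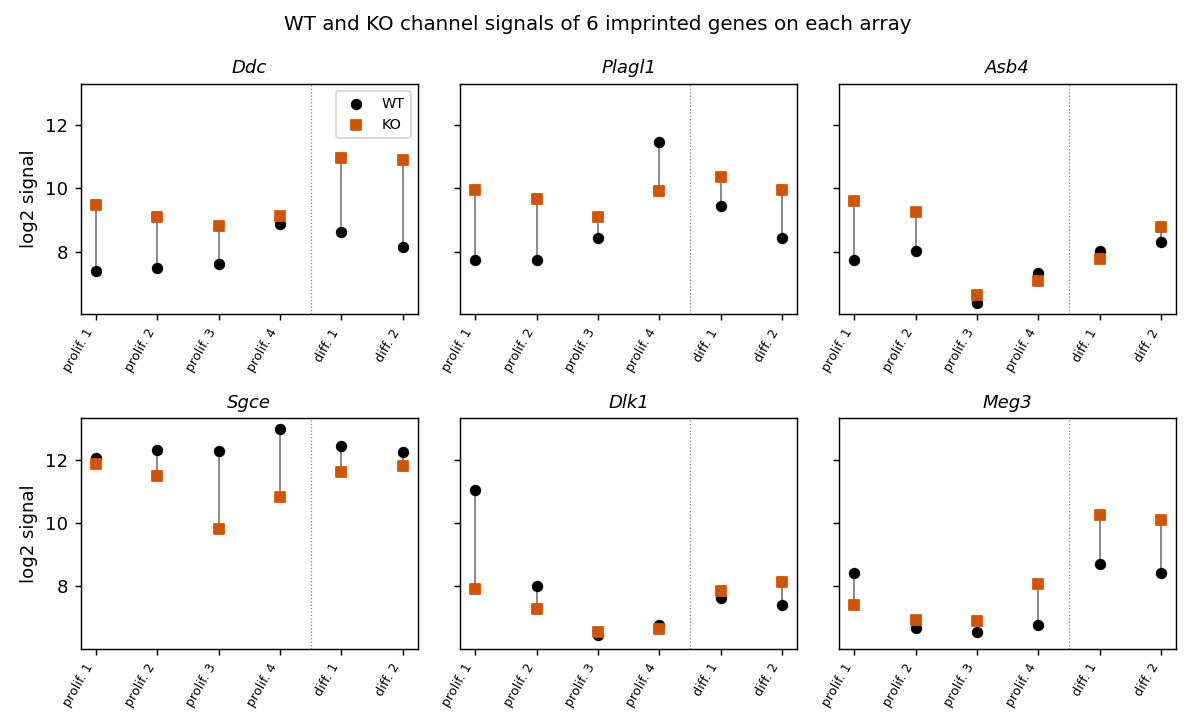
Log2 channel signal (vertical axis) of Ddc, Plagl1, Asb4, Sgce, Dlk1 and Meg3 in WT (black circles) and KO (orange squares) cells on each array, with a line joining the channels of an array. The Sgce gap opens by a fall of the KO points to 9.82 and 10.81, while the Dlk1 gap of proliferating replicate 1 and the reversed Plagl1 gap of replicate 4 come from WT points at 11.05 and 11.46.

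The Dlk1-Dio3 region of chromosome 12 holds genes of both parental kinds. Dlk1 encodes a transmembrane protein related to Notch ligands that neural stem cells of the subventricular zone need, Dio3 encodes a deiodinase that inactivates thyroid hormone, and Meg3 is a maternally read long noncoding RNA. Dlk1 gave -3.15, -0.74, 0.08 and -0.12, then 0.23 and 0.72. The large value on proliferating replicate 1 came from a WT signal of 11.05, beside 8.02, 6.47 and 6.76 in WT replicates 2 to 4 and 6.55 to 7.91 in the KO. A second probe gave -2.57 on that array and -0.18 to 0.17 on the others. The proliferating ratio was -0.98 ± 1.49 (SD, n = 4; limma adjusted p = 0.435), and without replicate 1 it was -0.18. The differentiating ratio was 0.48 ± 0.34 (n = 2; limma adjusted p = 0.834).

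Meg3 ratios were -1.04, 0.22, 0.35 and 1.29 in proliferating and 1.53 and 1.66 in differentiating cells. Proliferating replicates 1 and 4 thus pointed in opposite directions, and both differentiating arrays were high. In differentiating cells KO signals of 10.25 and 10.09 lay above WT signals of 8.71 and 8.43, a 3.03-fold difference. That ratio of 1.60 ± 0.09 (SD, n = 2; 95% confidence interval 0.51 to 2.69) did not pass (limma adjusted p = 0.137). It passed in the fit without proliferating replicates 3 and 4 (limma adjusted p = 0.0323) and in that without replicates 1 and 2 (0.0171). More of all genes passed in these fits than in the main one, and the latter was chosen after seeing the data. Of 5 probes, 3 passed the filter, and a second bright probe gave -0.87, 0.21, -0.06 and 0.79, then 1.39 and 1.45. The remaining passing probe was well above background only in differentiating cells, where it gave 0.30 and -0.03. Without proliferating replicates 3 and 4 the proliferating ratio turned from 0.21 to -0.41. Dio3 was not well above background in proliferating cells and had ratios of -0.13 and 0.10 in differentiating cells.

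Meg3 has annotated starts at chr12:109540746-109540995, with 10 CpGs and 1 copy of TGCCGC, and at chr12:109545148-109545397, with no CpG (plus strand, windows of 250 bases before the start). TGCCGC is the core of the motif bound by Zfp57, the zinc finger protein that holds imprints, and was searched on both strands. The window with CpGs, in capitals, read as follows.
Meg3, start with 10 CpGs: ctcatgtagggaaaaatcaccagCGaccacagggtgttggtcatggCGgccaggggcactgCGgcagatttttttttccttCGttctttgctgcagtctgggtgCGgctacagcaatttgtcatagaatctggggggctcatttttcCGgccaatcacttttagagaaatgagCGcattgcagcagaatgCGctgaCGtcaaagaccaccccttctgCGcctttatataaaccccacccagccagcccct

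TGCCGC or its reverse complement was found in 9 of 52 such windows of the imprinted genes (17.3%), which belong to 8 of the 33 genes with an entry, and in 8.7% of 32851 windows of all genes. The median number of CpGs per window was 11.5 for the imprinted genes, with a range of 0 to 40, and 6 for all genes. H19, Dcn, Impact, Peg10 and Sgce had no entry. A match describes the letters of a window and says nothing of binding.

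Peg3 and Usp29 on chromosome 7 start next to each other on opposite strands and are both read from the paternal copy. Peg3 encodes a zinc finger protein and Usp29 a ubiquitin peptidase. The 250 bases before the start of Usp29, at chr7:6730333-6730582 (plus strand), overlap the start region of Peg3 and hold 14 CpGs, in capitals.
Usp29: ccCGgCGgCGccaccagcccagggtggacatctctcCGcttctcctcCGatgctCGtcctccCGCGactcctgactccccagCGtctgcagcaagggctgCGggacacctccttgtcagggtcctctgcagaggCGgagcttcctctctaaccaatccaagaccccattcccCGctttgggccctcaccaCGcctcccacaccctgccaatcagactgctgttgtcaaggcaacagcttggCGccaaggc

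Usp29 was lower in differentiating KO cells. The ratios there were -1.53 and -1.03, and in proliferating cells 0.56, -0.89, -0.13 and -0.22. Within each condition they followed the dye, and were higher wherever the KO carried Cy5. Signals of 7.57 and 7.73 in the KO lay below 9.10 and 8.75 in the WT after mitogen withdrawal, whereas those of proliferating cells overlapped (7.20 to 7.81 and 7.25 to 8.09). The differentiating ratio of -1.28 (95% confidence interval -1.84 to -0.72), a 2.42-fold lower level, missed the threshold (limma adjusted p = 0.0511). It passed without proliferating replicates 3 and 4 (limma adjusted p = 0.0291) and without replicates 1 and 2 (0.00980). In both of these fits more of all genes passed than in the main one, and the latter was chosen after seeing the data. A second Usp29 probe was also below 0 on both differentiating arrays, at -0.32 and -0.40. Peg3 had -0.09, -0.12, 0.49 and 0.53 in proliferating and -0.19 and -0.12 in differentiating cells, with proliferating replicates 1 and 2 below 0 and replicates 3 and 4 above. A second Peg3 probe, well above background in every channel, did not repeat that split, at 0.14, 0.04, 0.37 and 0.13, then -0.12 and 0.06. The ratios of Peg3 were 0.20 ± 0.35 (SD, n = 4) and -0.16 ± 0.05 (n = 2; limma adjusted p = 0.562 and 0.779).

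In the large cluster at the end of chromosome 7, 7 of 8 listed genes were tested and 0 passed in either condition. H19, a maternally read noncoding RNA that shares enhancers with the growth factor gene Igf2, had ratios of 0.55, -0.0031, 0.32 and 0.84 in proliferating and 0.53 and 0.94 in differentiating cells. It was above 0 on 5 of 6 arrays, with -0.0031 on proliferating replicate 2, and its second probe, at 0.41, 0.07, 0.13 and 1.10, then 0.45 and 0.58, was above 0 on all 6. H19 did not pass, at 0.43 ± 0.36 (SD, n = 4) and 0.73 ± 0.29 (n = 2; limma adjusted p = 0.266 and 0.161), and passed in differentiating cells without proliferating replicates 3 and 4 (limma adjusted p = 0.0383). Igf2 was near background. Its WT channel never rose well above background and its KO channel did so on 1 array of each condition, so no fold is given. Measured Igf2 ratios were 0.10, 0.13, 0.10 and 0.16, then 0.36 and 0.59, and did not pass (limma adjusted p = 0.447 and 0.0682). They were above 0 on all arrays, but Igf2 entered the test through the KO channel alone. Their sign was thus partly built in and is no support for a difference. The other Igf2 probe, which failed the filter, gave -0.05, 0.01, -0.02 and -0.05, then -0.07 and 0.06.

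Tssc4, of the Kcnq1 side of the cluster, had 0.04, 0.11, 0.41 and -0.26 in proliferating and 0.43 and 0.71 in differentiating cells. Only the differentiating arrays kept a sign, and the ratio there of 0.57 ± 0.20 (SD, n = 2) did not pass (limma adjusted p = 0.107). Osbpl5, for an oxysterol-binding protein, had 0.65, -0.51, 0.32 and -0.37, then -0.73 and 0.07, higher within each condition wherever the KO carried Cy5. The remaining 3 genes had small ratios. Cd81, for a tetraspanin, lay between -0.28 and 0.12 and was saturated in part of its channels, Slc22a18, for a transporter, between -0.35 and 0.11, and Ascl2, for a basic helix-loop-helix factor, between -0.16 and 0.04.

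The Prader-Willi and Angelman region, also on chromosome 7, had 5 of 5 genes tested and 0 passed. Ndn, for necdin, a protein that promotes neuronal survival and exit from the cell cycle, was above 0 on all 6 arrays, at 0.19, 0.52, 0.20 and 0.72, then 0.24 and 0.20 (limma adjusted p = 0.106 and 0.417). Snrpn, for a splicing protein of brain, gave 0.08, 0.80, -0.11 and 1.02, then 0.55 and -0.10. The 3 high values are the 3 arrays on which the KO carried Cy3, and the dye coefficient was -0.83 (unadjusted p = 0.0010, limma). Dye coefficients of Osbpl5 and Ppp1r9a were 0.88 and 0.63 (unadjusted p = 0.00075 and 0.0032, limma). For Usp29, Igf2r and Gnas they were 0.68, 0.75 and -0.43 (unadjusted p = 0.042, 0.049 and 0.013, limma). After adjustment over all genes 0 of 17439 passed for dye (2938 at an unadjusted p under 0.05), among them 0 of the imprinted genes (6 unadjusted). With the dye in the fit the Snrpn ratio in proliferating cells was 0.45 (95% confidence interval 0.25 to 0.65, limma adjusted p = 0.0853). Mkrn3, Magel2 and Ube3a, for a ring finger protein, a MAGE family protein and a ubiquitin ligase, stayed between -0.54 and 0.42.

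Among the other genes, Mest, a paternally read gene for a hydrolase, moved most between arrays. Its ratios of 0.04, 0.82, 0.84 and -0.89 in proliferating and -0.19 and -0.47 in differentiating cells point both ways (limma adjusted p = 0.817 and 0.780). The KO signal ran from 13.35 to 15.33 over the proliferating arrays and the WT signal from 14.24 to 14.60. Copg2, for a coat protein of transport vesicles, is encoded on the opposite strand and stayed between -0.13 and 0.25. Its probe used, at chr6:30680637-30680696 (mm7, minus strand), lies next to the Mest probe at chr6:30680425-30680484 (plus strand). Igf2r, the receptor that clears Igf2, had 0.40, -0.89, 0.69 and 0.16, then -0.18 and 0.25, higher within each condition wherever the KO carried Cy5.

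Rasgrf1, a paternally read gene for an exchange factor of Ras, was well above background in the KO on both differentiating arrays and in the WT on 0 of 2. Ratios were -0.03, 0.05, -0.10 and 0.11, then 0.45 and 1.20, and a second probe gave 0.95 and 1.45 in differentiating cells. That second probe passed the filter only through the KO channel of those cells. The probe used also needed that channel to enter the test. Higher KO values there were thus partly built in and are no support for a difference. The probe used did not pass (limma adjusted p = 0.0773), and since its WT channel was at background the size of the difference is not exact. Inpp5f, for a phosphoinositide phosphatase, was lower there, at -0.65 and -0.67, beside -0.46, -0.13, 0.01 and -0.11 in proliferating cells. KO signals of 10.93 and 11.10 lay below WT signals of 11.57 and 11.77, and the ratio of -0.66 did not pass (limma adjusted p = 0.0676). It passed without proliferating replicates 1 and 2 (limma adjusted p = 0.0287), a fit chosen after seeing the data in which more of all genes passed. Impact, for a regulator of translation, had close values of -0.16, -0.18, -0.24 and -0.20, then 0.15 and 0.09. All proliferating arrays were below 0 and both differentiating arrays above, and the difference between conditions of 0.31 did not pass (limma adjusted p = 0.331). Gnas, for the stimulatory G protein subunit, had ratios between -0.15 and 0.49, Nnat, for the membrane protein neuronatin, between -0.24 and 0.87, Nap1l5, for a nucleosome assembly protein, between -0.39 and 0.68, and Gatm, for an enzyme of creatine synthesis, between -0.49 and 0.55. The ratio of Gnas was higher within each condition wherever the KO carried Cy3.

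The parental origin of the read copy did not sort the ratios by sign. Of 16 paternally read genes tested, of 17 listed, 10 were above 0 and 6 below in proliferating cells (median 0.06) and 7 above and 9 below in differentiating cells (median -0.06). Of 12 maternally read genes tested, of 15 listed, 7 were above 0 and 5 below in proliferating cells (median 0.05) and 6 above and 6 below in differentiating cells (median 0.00). None of these genes passed in either condition at the limma threshold, since Ddc was listed as depending on tissue.

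The spread between replicate arrays can be set beside that of all genes. The SD over the 4 proliferating arrays was above 0.5 for 12 of 33 (36.4%), against 11.1% of all genes tested, with median SDs of 0.36 and 0.23. Among genes well above background in every channel the shares were 9 of 24 (37.5%) and 11.9%. A ratio above 0.5 on one proliferating array and below -0.5 on another was seen for 6 of 33 (18.2%), against 4.58% of all genes. On each array between 6.06% and 15.2% of the imprinted genes had a ratio beyond 1 in either direction, against 2.39% to 5.05% of all genes tested. These shares are descriptions over genes, which are not replicates.

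The difference between the KO effects in differentiating and in proliferating cells passed for 0 of 33 genes by limma, where 0.0516% of all genes passed. An unadjusted p under 0.05 was seen for 10, and for 2121 of 17439 among all genes. Igf2 and Rasgrf1, which are among these 10, needed the KO channel to enter the test and are no support for a difference. The differences of largest size were Dlk1 at 1.46, Meg3 at 1.39, Ddc at 1.25, Usp29 at -1.11 and Grb10 at -1.10 (limma adjusted p = 0.621, 0.392, 0.344, 0.215 and 0.186). Without adjustment the intervals of Ddc (0.17 to 2.33), Meg3 (0.06 to 2.72), Usp29 (-1.79 to -0.42) and Grb10 (-1.70 to -0.50) leave out 0 and that of Dlk1 (-0.84 to 3.76) holds it. Without proliferating replicates 1 and 2, a fit chosen after seeing the data, the count was 3. Many more of all genes also passed in that fit than in the main one, as given in the last section.

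Mitogen withdrawal itself was compared within each genotype from the channel signals. All proliferating arrays lay on one slide and scan and both differentiating arrays on another, so withdrawal, slide and scan cannot be told apart. In WT cells 3 of 33 imprinted genes passed (9.09%), where 15.1% of all genes did, and all 3 were higher, where 9.12% of all genes were higher and 5.98% lower. In KO cells 7 of 33 passed (21.2%), where 15.5% of all genes did, 5 higher (9.29% of all genes) and 2 lower (6.18%). Both counts of higher genes include Dio3, which entered the test through the differentiating arrays alone and so had to differ. The scatter of changes in WT and KO cells shows both sets.

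**Figure D4:**
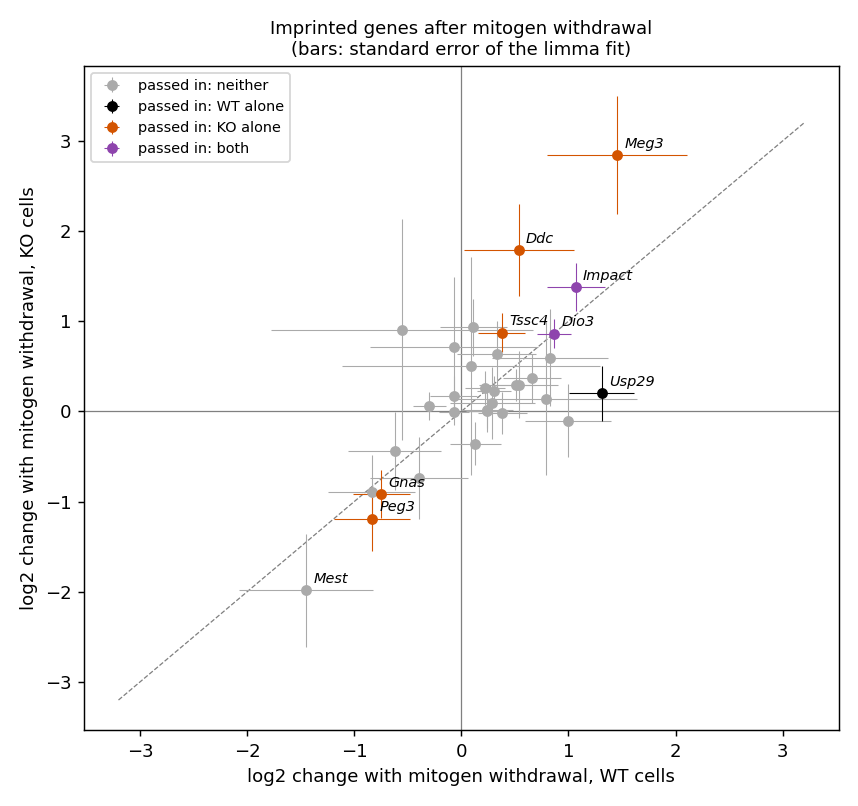
Fitted log2 change with mitogen withdrawal in WT cells (horizontal axis) and KO cells (vertical axis) for the 33 imprinted genes tested, with standard errors of the limma fit as bars and colour for the genotype in which a gene passed. Meg3 is at 1.45 and 2.85, Usp29 at 1.31 and 0.20, and Impact and Dio3, which passed in both (Dio3 from background), lie near the dashed line of equal change.

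Impact was higher after withdrawal in both genotypes. In WT cells its signals went from 10.52, 10.53, 10.86 and 11.51 to 11.75 and 12.10, and in KO cells from 10.37, 10.35, 10.62 and 11.32 to 11.90 and 12.18, without overlap. The changes were 1.07 and 1.38 (limma adjusted p = 0.0286 and 0.0114). Dio3 was not well above background in proliferating cells of either genotype and reached it on both differentiating WT arrays and on 1 of 2 KO arrays. Dio3 was at least 1.20-fold higher in WT cells, where the differentiating mean is set against the higher of the proliferating signal and the dimmest signal well above background on each array. It entered the test through the differentiating arrays alone, so it had to differ, and its place among the genes that passed in both genotypes (limma adjusted p = 0.00905 and 0.00955) is no support for a change.

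Usp29 passed in WT cells, where signals of 7.25, 8.09, 7.53 and 7.59 became 9.10 and 8.75, a change of 1.31 (limma adjusted p = 0.0214). In KO cells the change was 0.20 (95% confidence interval -0.48 to 0.88). The test of that contrast between genotypes is the difference of the KO effects, -1.11, which did not pass. Meg3 passed in KO cells, where signals of 7.40, 6.92, 6.90 and 8.07 became 10.25 and 10.09, a change of 2.85 or 7.19-fold (limma adjusted p = 0.0200). In WT cells signals of 8.44, 6.70, 6.54 and 6.77 became 8.71 and 8.43, a change of 1.45 that did not pass (limma adjusted p = 0.157). Ddc and Tssc4 also passed as higher in KO cells, by 1.79 and 0.87 (limma adjusted p = 0.0429 and 0.0279), beside 0.54 and 0.38 in WT cells.

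Lower after withdrawal in KO cells were Peg3 and Gnas. Peg3 signals went from 9.87, 9.42, 9.46 and 9.21 to 8.06 and 8.53, a change of -1.19 (limma adjusted p = 0.0494), beside -0.83 in WT cells. Gnas changed by -0.91 (limma adjusted p = 0.0454) and by -0.75 in WT cells, with KO signals of 13.05, 13.38, 13.31 and 13.65 before. After withdrawal differentiating replicate 1 lay just below the lowest of these and replicate 2 at 11.86. The low Gnas value is that of replicate 2 alone, and without that array the change was -0.48. Mest had the lowest change, -1.98 in KO and -1.45 in WT cells, and did not pass (limma adjusted p = 0.0589 and 0.144). When 1 array was left out the counts of all genes moved widely, as given in the last section. The counts of imprinted genes that follow are thus no measure particular to them. With differentiating replicate 2 left out 0 imprinted genes passed in either genotype, and with proliferating replicate 1 left out 0 passed in WT cells and 1 in KO cells, Meg3. With proliferating replicate 2, proliferating replicate 3 or differentiating replicate 1 left out the counts were 1, 1 and 1 in WT cells and 1, 2 and 2 in KO cells, and without proliferating replicate 4 they were 5 and 9.

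A wider set of imprinted genes that are not among the 38 gave 25 genes tested of 53 listed. In proliferating cells 2 of 25 passed (8%, against 0.992% of all genes tested), both as higher in the KO, and in differentiating cells 1 of 25 (4%, against 3.15%). Cdkn1c, the maternally read gene for a cyclin-dependent kinase inhibitor in the Kcnq1 part of the chromosome 7 cluster, passed in both conditions. Its ratios were 0.53, 1.09, 1.15 and 1.17, then 1.46 and 1.38 (limma adjusted p = 0.0317 and 0.0203), above 0 on every array. Without proliferating replicates 3 and 4 the proliferating ratio of 0.81 did not pass, and of the fits that leave out 1 array it passed in 1 of 6, that without proliferating replicate 1. Xlr4b, an X-linked gene that is read from the maternal X in brain, had 2.94, 2.40, 3.53 and 4.59, then 2.26 and 2.41. It passed as higher in proliferating KO cells (limma adjusted p = 0.0256), with a fitted 10.3-fold difference that is not exact, since the WT channel was well above background on 3 of 4 arrays. In differentiating cells the difference was 5.04-fold and did not pass (limma adjusted p = 0.0757). Xlr4b has near-identical copies beside it, so the probe may read several of them, and it passed with and without proliferating replicates 3 and 4, whose Xist and Ddx3y signals differed between genotypes. Of the fits that leave out 1 array it passed in 2 of 6, those without proliferating replicate 2 or 4.

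Among factors that set or keep imprints, 24 of 27 were tested. In proliferating cells only Dnmt3a itself passed, as lower. In differentiating cells Dnmt3a passed as lower and Uhrf1, which guides Dnmt1 to replicated DNA, as higher, with ratios of 1.31 and 1.33 there and -0.23, 0.54, 0.20 and 0.75 in proliferating cells (limma adjusted p = 0.0281 and 0.305). Uhrf1 was itself lower after mitogen withdrawal, by -3.76 in WT and -2.75 in KO cells (limma adjusted p = 0.00622 and 0.0201).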

How the data were processed

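The 38 genes, the marker lists and the tests were chosen with earlier results of these data known. Per the file headers, spot intensity values were deposited as Agilent Feature Extraction 9.5.1.1 scanner output (array design 014868, probe positions on mm7). Deposited log10 ratios from the authors match the scanner's own, turned to KO over WT, with a correlation of 1 on every array and column medians of 0. They served as an alternative only through the processed signals behind them. Spots were corrected with normexp (offset 50) and loess within arrays in limma 3.58.1 (R 4.3.3, statmod 1.5.0, data.table at version 1.17.8), with 1639 control spots and 120 to 184 outlier spots per array left out and saturated spots kept. Between 52.3% and 59.1% of gene spots per channel were well above background.

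Of 41174 probes, 22951 were named by accession, 6659 by a current name and 3109 by an older name in RefSeq's table, and 8455 kept the name in the file. The brightest passing probe stood for a gene. Ratios were fitted with a term per condition and a dye term (3 residual and 2.56 prior degrees of freedom), and mitogen withdrawal with limma's separate-channel fit after Aquantile (intraspot correlation 0.763, 17431 genes). The steps were tested on simulated data. Ratios are given array by array for the listed imprinted genes that passed in a comparison, except Gnas and Dio3, which are given in part. They are also given for the 12 imprinted genes with the largest ratios. The alternatives are other signals, centring, filters, dye terms, probe rules, weights and sets of arrays. Promoter sequences are RefSeq's, on GRCm38.p6, and were matched by symbol to 33 genes.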

Additional observations from a re-analysis of the deposited data

Results flagged for a closer look

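Ube3a had a ratio of 0.325 on proliferating replicate 2, apart from 0.08, 0.08 and 0.07 on the other 3 proliferating arrays. The gap to the nearest array, as a share of the range, was above Dixon's 95% critical value for 4 samples. Chance gives such a value in about 1 of 20 groups, and 33 groups were looked at.

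Impact and Grb10 had ratios of one sign on all 4 proliferating arrays and of the other sign on both differentiating arrays. The WT channel of Grb10 was not well above background on proliferating replicates 3 and 4. The difference of the KO effects was 0.313 for Impact and -1.1 for Grb10. Neither passed when the difference was tested with limma over all genes (adjusted p = 0.331 and 0.186).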

How the results depend on the processing

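6 arrays, 2 of them differentiating, limit every call, and signals near background limit Igf2, Dio3, Rasgrf1, Magel2, Grb10, Ascl2, Asb4, Dlk1 and Meg3, each not well above background in at least 1 channel. Where a pair of counts is given here, that of imprinted genes that passed comes first and that of all genes second. A count of imprinted genes given alone has no count of all genes beside it, so it shows no change particular to these genes. In differentiating cells (main 1 and 549) they were 4 with Agilent's processed signals, 2 with no background subtraction, 0 with no filter on dim probes, 2 where all 6 arrays had to be well above background, 6 and 1183 with array weights, 2 with the mean of a gene's probes, 8 and 1543 with only the differentiating arrays fitted, 5 and 964 without proliferating replicates 3 and 4, 4 and 1374 without replicates 1 and 2, and 284 of all genes with median centring in place of loess. In proliferating cells (main 0 and 173) they were 3 without replicates 3 and 4, 2 and 578 without replicates 1 and 2, and, for all genes, 274 with processed signals, 106 with no filter and 0 with only the proliferating arrays. The fit without replicates 1 and 2 was chosen after seeing the data.

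The difference of the KO effects (main 0 and 9) gave 3 and 403 without replicates 1 and 2 and, for all genes, 70 with processed signals, 0 with median centring, 0 with no filter, 5 with the stricter filter, 23 with no dye term, 21 with array weights and 0 without replicates 3 and 4. Withdrawal gave 5 and 4557 in WT cells and 4797 of all genes in KO cells with no between-array normalization, 4 in KO cells with no filter, and 1011 (WT) and 4 and 1267 (KO) without replicates 3 and 4.

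Leaving out 1 array at a time gave 0 imprinted genes in proliferating cells and 0 to 3 in differentiating cells (all genes 0 to 179 and 0 to 531), 0 for the difference (all genes 0), and 0 to 5 in WT and 0 to 9 in KO cells for withdrawal (all genes 206 to 3741 and 287 to 4614). The proliferating count of all genes was 4 without replicate 3, and no gene passed in either condition without a differentiating array.

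Whether same-numbered arrays pair cannot be told. Their deviations correlated at -0.367 and -0.287, but KO RNA carried opposite dyes on the arrays of each number. The deviations of the 2 differentiating arrays also mirror each other. The replicate block with no dye term gave 2 and 423 in proliferating cells, 3 and 311 in differentiating cells and 0 of all genes for the difference. The replicate block as a random effect gave 2 imprinted genes in differentiating cells.

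Of single ratios, signs turned for Rasgrf1 in proliferating cells (-0.0994 with median centring, -0.00644 with array weights), for Meg3 (-0.408 without proliferating replicates 3 and 4), for Plagl1 in proliferating cells (-0.439 without replicates 1 and 2), and under the replicate block for Plagl1 (-0.0247) and Asb4 (-0.641) in differentiating cells. With 1 array left out, ranges that crossed 0 were -0.109 to 0.594 for Meg3, -0.0684 to 0.0856 for Rasgrf1 and -0.00911 to 0.154 for Tssc4 in proliferating cells, and -0.319 to 1.27 for Dlk1 in differentiating cells. The causes were not tested. Of 384 ratios under whole-set alternatives 329 kept their direction and side of the threshold, 39 came to pass, 10 no longer passed and 6 turned sign. Of the withdrawal changes 17 of 50 no longer passed, and 43 of 60 with 1 array left out.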
